A study of Mus musculus with 15 samples.

Results

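The nuclear genome encodes most subunits of the mitochondrial respiratory chain and of ATP synthase. The genes examined were the protein-coding rows of the count tables with mouse symbols that begin with Ndufa, Ndufb, Ndufc, Ndufs, Ndufv, Uqcr, Cox4 to Cox8 or Atp5. Assembly factors (8 Ndufaf genes) and 4 pseudogenes were left out, so that 83 of the 26301 rows remained. They comprised 39 subunits of complex I, 8 of complex III, 19 of complex IV (with Ndufa4, now counted there) and 17 of complex V. Related copies expressed only in some tissues were kept.

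The measurements were RNA-seq counts from 3T3-L1 cells, a mouse preadipocyte line, on day 2 of adipocyte differentiation induced with insulin (1.67 µM), dexamethasone (1 µM) and IBMX (115 µg/mL) in medium with 10% serum. JMJD1A (gene symbol Kdm3a) is a demethylase of dimethylated histone H3 lysine 9. The knockdown set held control cells with the control retroviral vector (sh-Empty) and JMJD1A-KD cells with a retroviral shRNA against Jmjd1a (sh-Jmjd1a), and it asked which transcripts depend on JMJD1A early in differentiation. In the rescue set, all cells carried the same shRNA and in addition a retroviral LacZ, wild-type JMJD1A [JMJD1A(WT)] or a mutant that cannot coordinate iron [JMJD1A(H1122A)], the JMJD1A forms being resistant to the shRNA. Each of the 5 groups had 3 libraries, from cells selected with antibiotics. Nothing in the sources states that the 3 libraries of a group came from separate infections or cultures, so that p-values measure the spread between these libraries, which may be technical.

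Complexes I, III and IV pass electrons from NADH and ubiquinol to oxygen and pump protons across the inner mitochondrial membrane. Complex V lets the protons return and makes ATP. Catalytic cores that contain subunits encoded by mitochondrial DNA are surrounded by many accessory subunits from nuclear genes, and mitochondria multiply and remodel while preadipocytes become fat cells.

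Promoter windows are printed for 5 members, which were chosen after their values were seen. Ndufc2 was the member that JMJD1A(WT) raised relative to LacZ, and Atp5k was the member with the largest decrease on knockdown. Atp5g1, Atp5g2 and Atp5g3 encode the same mature subunit but differed in response. The RefSeq windows of assembly GRCm38.p6 run from 250 bases before to 50 bases after the annotated start, 5′ to 3′ on the strand of the gene. They lie at chr7:97399753-97400052 (plus strand) for Ndufc2, chr5:108434350-108434649 (minus strand) for Atp5k, chr11:96075582-96075881 (minus strand) for Atp5g1, chr15:102670998-102671297 (minus strand) for Atp5g2 and chr2:73911277-73911576 (minus strand) for Atp5g3. Capitals mark matches, on either strand, to the motifs described next.
Ndufc2: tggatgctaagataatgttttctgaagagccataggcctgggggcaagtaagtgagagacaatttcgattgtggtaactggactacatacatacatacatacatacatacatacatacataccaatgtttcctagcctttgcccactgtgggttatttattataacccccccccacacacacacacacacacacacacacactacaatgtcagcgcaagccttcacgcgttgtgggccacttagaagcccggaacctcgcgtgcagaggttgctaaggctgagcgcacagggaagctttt
Atp5k: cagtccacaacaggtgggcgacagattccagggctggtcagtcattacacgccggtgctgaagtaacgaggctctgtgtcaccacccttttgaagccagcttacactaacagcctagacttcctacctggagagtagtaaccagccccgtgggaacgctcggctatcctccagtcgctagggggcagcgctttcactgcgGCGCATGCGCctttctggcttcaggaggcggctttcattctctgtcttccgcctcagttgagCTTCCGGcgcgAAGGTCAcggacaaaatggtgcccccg
Atp5g1: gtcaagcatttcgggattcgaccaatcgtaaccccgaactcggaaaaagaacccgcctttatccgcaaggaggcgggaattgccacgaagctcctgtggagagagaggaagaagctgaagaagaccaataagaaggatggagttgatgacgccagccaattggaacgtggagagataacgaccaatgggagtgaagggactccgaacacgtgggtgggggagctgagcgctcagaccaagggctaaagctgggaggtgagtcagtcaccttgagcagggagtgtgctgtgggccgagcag
Atp5g2: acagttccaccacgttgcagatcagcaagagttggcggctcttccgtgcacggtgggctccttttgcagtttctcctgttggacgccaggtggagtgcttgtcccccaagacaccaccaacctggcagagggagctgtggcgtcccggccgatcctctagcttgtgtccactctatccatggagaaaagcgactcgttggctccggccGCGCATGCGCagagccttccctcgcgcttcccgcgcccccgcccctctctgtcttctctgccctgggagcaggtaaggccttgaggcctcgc
Atp5g3: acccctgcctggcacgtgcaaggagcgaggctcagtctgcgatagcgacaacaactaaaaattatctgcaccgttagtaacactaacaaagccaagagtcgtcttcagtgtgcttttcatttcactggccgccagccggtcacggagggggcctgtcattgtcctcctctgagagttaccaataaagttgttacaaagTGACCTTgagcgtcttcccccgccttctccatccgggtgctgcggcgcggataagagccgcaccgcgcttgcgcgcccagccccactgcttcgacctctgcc

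Of the 83 members, 67 had such a window (72 windows in all). Each was searched on both strands for 4 motifs of transcription factors known from promoters of respiratory genes. The NRF1 motif GCATGCGC was in 12.5% of the members' windows and in 2.71% of all 32851 windows. The ETS motif CCGGAAG, bound by GABP, was in 20.8% against 8.86%. The YY1 motif AAGATGGC was in 13.9% against 2.75%, and the half-site AAGGTCA of estrogen-related receptors in 9.72% against 4.72%. Overlapping NRF1 matches on both strands were in the windows of Atp5k and Atp5g2, an ETS match in that of Atp5k, and half-sites in those of Atp5k and Atp5g3. The windows of Ndufc2 and Atp5g1 held none of the 4. Of the 61 tested members with a window, 47 fell on knockdown, as did 6 of 8 with the NRF1 motif, 10 of 13 with the ETS motif, 8 of 10 with the YY1 motif and 5 of 7 with the half-site. A match is a description of letters, not a bound site.

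Library totals ranged from 11437058 to 25523148 counts, and the members took 0.65 to 0.849% of them. Of the 83 members, 72 passed the filter on low counts in both sets. Kdm3a itself fell on knockdown, from 177 ± 7.31 to 132 ± 5.77 CPM (counts scaled by normalized library size; mean ± SD, n = 3), and stood at 119 ± 2.62 with LacZ, 1690 ± 69 with JMJD1A(WT) and 2197 ± 92.2 with JMJD1A(H1122A). Adipocyte markers (Adipoq, Fabp4, Plin1 and 6 others) were present in every group. The summed level of the 5 macrophage markers was at most 4.05 CPM in any library, that of the 3 endothelial markers at most 0.656 CPM and that of the 4 muscle markers at most 0.0647 CPM.

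The 11 members that did not pass reached at most 16 counts in any library. Isoforms known from heart, skeletal muscle, brown fat, testis or lung (Cox4i2, Cox6a2, Cox6b2, Cox7a1, Cox7b2, Cox8b and Cox8c), Ndufa4l2 and Ndufb4c were among them. Uqcr11, a small subunit of complex III, and Cox8a, the widely expressed form of that complex IV subunit, were listed at no more than 2 and 1 counts in a library. The tested subunits of both complexes were measured at 238 counts or more, so that these listed values were not read as levels. The widely expressed partners of these pairs (Cox4i1, Cox6a1, Cox6b1, Cox7a2 and Cox7b) all passed the filter. Ndufb4b passed with only 5 to 23 counts per library, whereas every other tested member had at least 238.

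On knockdown, the subunits of all 4 complexes fell together, by modest amounts. Of the 72 members tested, knockdown lowered 55 and raised none by edgeR's quasi-likelihood test (adjusted p under 0.05; 60 members had an unadjusted p under 0.05). Of all 12272 genes tested, 23.9% were lower and 22.3% higher. The median log2 fold change was -0.29 among the members, a decrease of 18.1%, and 0.00 among all genes. The fold change was negative for 68 of the 72. In 55 members, 51 of them among the 55 that were called, the 3 libraries of one group did not overlap with those of the other. The same held for 53.0% of all genes. In bulk RNA, fewer cells of a type and less RNA per cell cannot be told apart.

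**Figure D1:**
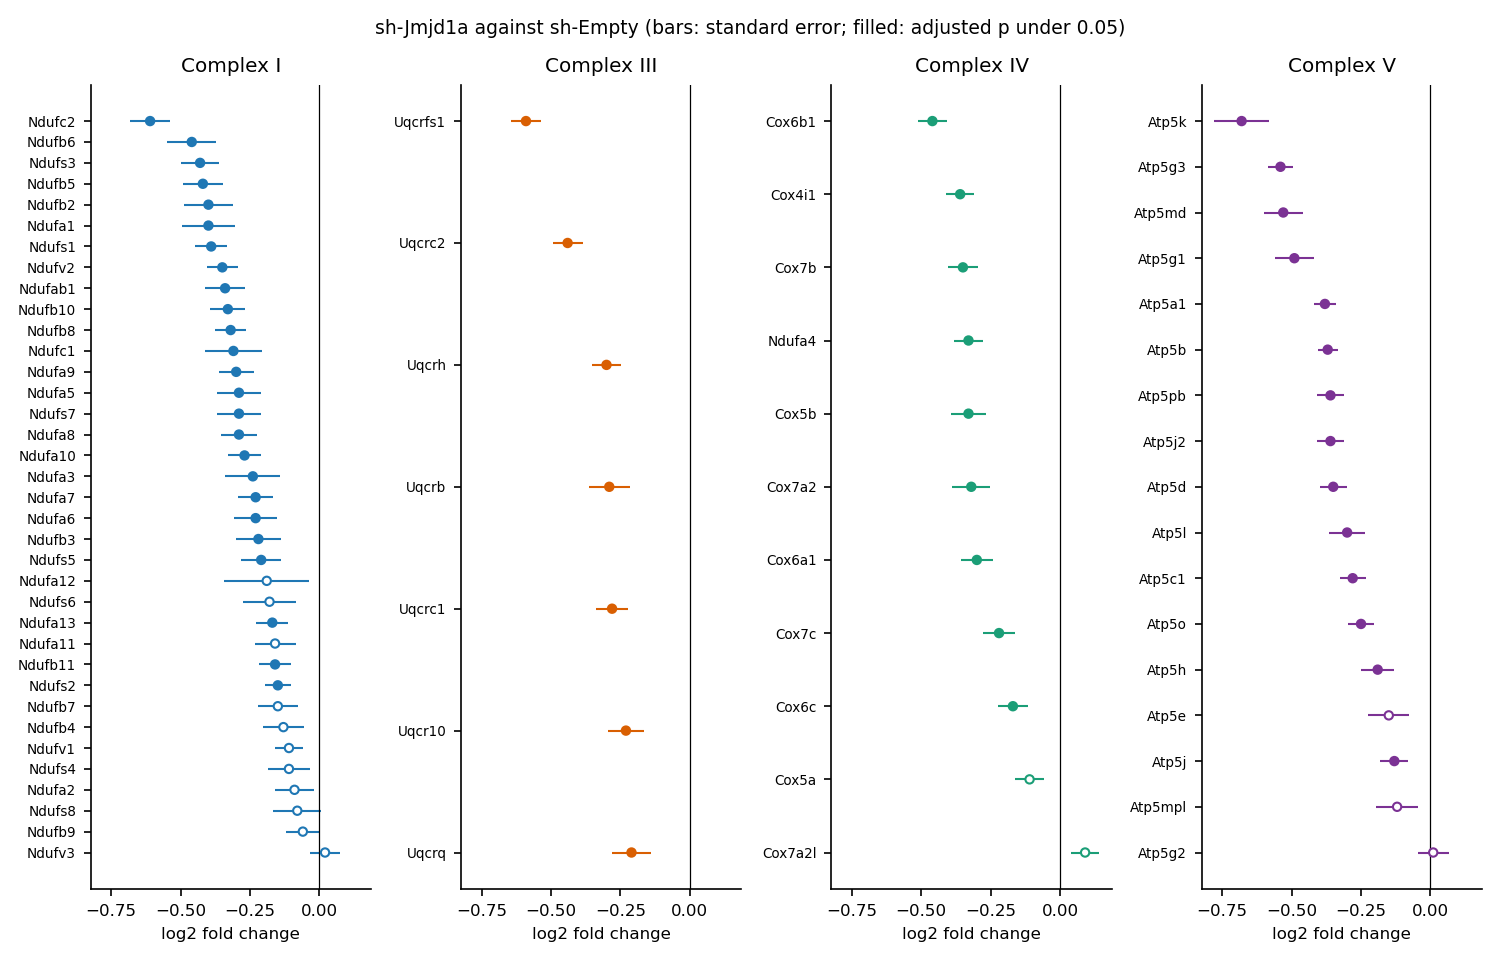
Log2 fold change of each tested member in sh-Jmjd1a against sh-Empty cells, by complex, without the low-count Ndufb4b. Bars are standard errors of the fit, filled points had an adjusted p under 0.05, and 68 of the 71 points lie left of 0, from -0.68 for Atp5k to 0.09 for Cox7a2l.

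All 7 tested subunits of complex III, 14 of 17 of complex V, 9 of 11 of complex IV and 25 of 37 of complex I were lower. Summed over the members, the level was 8474, 8259 and 8552 CPM in the 3 sh-Empty libraries and 7011, 7126 and 6482 CPM in the 3 sh-Jmjd1a libraries. Every sh-Jmjd1a library lay below every sh-Empty library, and sh-Jmjd1a replicate 3 was the lowest. By complex, the summed level went from 2434 ± 43.7 to 2077 ± 121 CPM for complex I and from 700 ± 11.1 to 554 ± 24.8 CPM for complex III (mean ± SD, n = 3). For complex IV it went from 1490 ± 34 to 1243 ± 82.2 CPM and for complex V from 3804 ± 63.8 to 2998 ± 116 CPM. Without sh-Jmjd1a replicate 3, 44 members were lower, Cox7a2l was higher, and the median was -0.22. The summed level of 9 adipocyte markers moved in the same direction, from 5218 to 5305 CPM in sh-Empty to 2649 to 2790 CPM in sh-Jmjd1a libraries, and all 9 were lower. Of 8 preadipocyte and fibroblast markers, 6 were higher and 1 (Dlk1) was lower. The summed level of 5 brown or beige fat markers was 21.7 to 22.1 CPM in sh-Empty and 34.4 to 36.5 CPM in sh-Jmjd1a libraries. Only 2 of these 5 were tested: Dio2 was higher (1.76) and Ppargc1a was not called. The part of these cell states in the result was not tested.

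**Figure D2:**
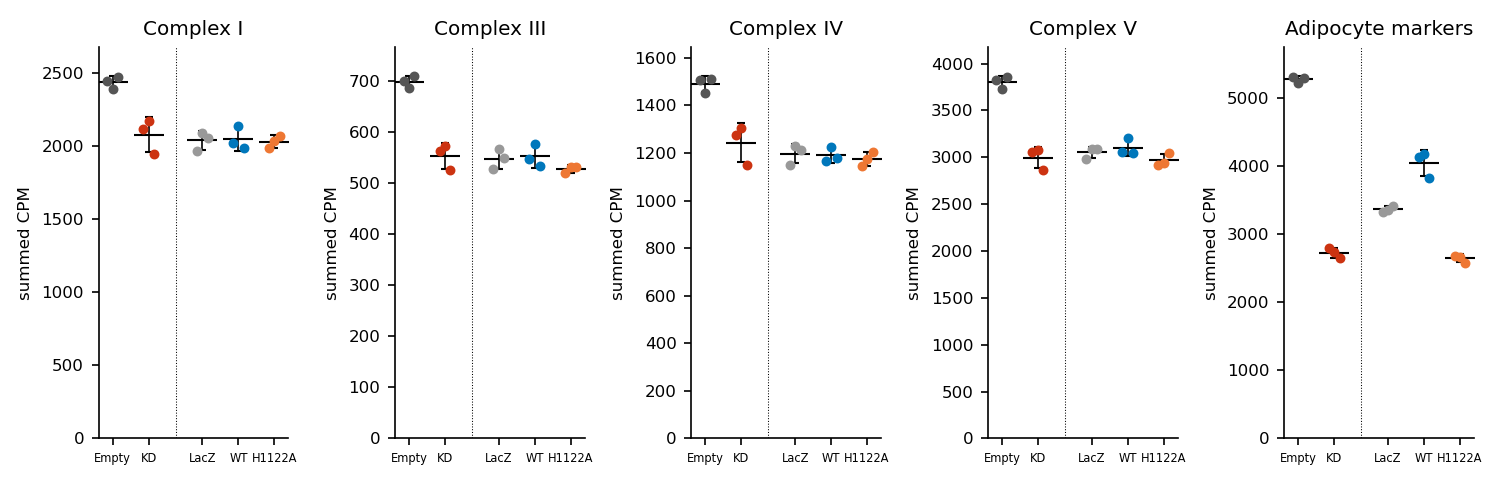
Summed CPM of the members of each complex, and of 9 adipocyte markers, in each library (points) with mean and SD (n = 3). KD is sh-Jmjd1a, and the dotted line separates the sets, which were scaled apart. The 3 sh-Jmjd1a libraries lie below the 3 sh-Empty libraries in every panel, and the 3 rescue groups overlap for complexes I and IV but lie apart for the adipocyte markers.

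In complex V, the largest decrease was that of Atp5k (chr5:108862263-108863467 in mm9, minus strand), the small membrane subunit e that takes part in dimer formation. It stood at 37.4, 34.3 and 41.2 CPM in sh-Empty and at 26.8, 24.6 and 19.7 CPM in sh-Jmjd1a libraries. The groups did not overlap, and the log2 fold change was -0.68 (SE 0.098, adjusted p = 1.84e-06). RefSeq also names pseudogenes of Atp5k, with which the counting could split reads. Atp5md, another small membrane subunit, was at -0.53. Atp5b, the beta subunit of the catalytic head, stood at 1172, 1129 and 1174 CPM against 889, 924 and 882 CPM. Its log2 fold change was -0.37 (SE 0.036, adjusted p = 1.64e-09). Its partner, the alpha subunit Atp5a1, was at -0.38 and the peripheral stalk subunit Atp5pb at -0.36. Subunits of complex V that did not pass were Atp5e (-0.15), Atp5mpl (-0.12) and Atp5g2 (0.01).

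The 3 Atp5g genes encode the same mature c subunit, which forms the rotating proton ring, with different mitochondrial import peptides. Atp5g3 (chr2:73746504-73749383 in mm9, minus strand) stood at 361, 348 and 350 CPM in sh-Empty and at 255, 248 and 224 CPM in sh-Jmjd1a libraries. Atp5g1 (chr11:95930166-95936984, minus strand) stood at 56.1, 51.3 and 57.5 CPM and at 40.1, 37.9 and 39.8 CPM. Both fell with no overlap, by 0.54 (SE 0.0449, adjusted p = 4.93e-11) and 0.49 (SE 0.07, adjusted p = 1.39e-06) on the log2 scale. Atp5g2 (chr15:102493299-102501478, minus strand) stood at 114, 108 and 113 CPM in sh-Empty and at 113, 121 and 103 CPM in sh-Jmjd1a libraries, so that its groups overlapped and its log2 fold change was 0.01 (SE 0.056, adjusted p = 0.945). Within each library, the log2 ratio of Atp5g3 to Atp5g2 counts was 1.66, 1.69 and 1.63 in sh-Empty and 1.17, 1.03 and 1.13 in sh-Jmjd1a. The mean ratios differed by -0.55 with no overlap (two-sided exact permutation p = 0.1, the smallest that 3 against 3 libraries allow; adjusted p = 0.171 over the 12 ratio tests made). The ratio of Atp5g1 to Atp5g2 differed by -0.49 with the same p, and that of Atp5g3 to Atp5g1 by -0.06 with overlap.

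In complex III, Uqcrfs1, the Rieske iron-sulfur protein (chr13:30632177-30637231 in mm9, minus strand), stood at 108, 110 and 114 CPM in sh-Empty and at 74.9, 77 and 69.2 CPM in sh-Jmjd1a libraries. Its log2 fold change was -0.59 (SE 0.0556, adjusted p = 7.24e-10) with no overlap. Uqcrc2 and Uqcrc1, the core proteins, were at -0.44 and -0.28, and Uqcrh, the hinge protein, was at -0.30. Uqcr10 (-0.23) and Uqcrq (-0.21) had the smallest decreases, and both calls were lost without sh-Jmjd1a replicate 3, that of Uqcrq also without sh-Empty replicate 1 or 2.

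In complex I, Ndufc2, an accessory subunit of the membrane arm (chr7:104548513-104556312 in mm9, plus strand), stood at 49, 52.1 and 52.4 CPM in sh-Empty and at 34.9, 33.5 and 32.2 CPM in sh-Jmjd1a libraries. It fell by 0.61 on the log2 scale (SE 0.0718, adjusted p = 4.46e-08). Ndufb6, another accessory subunit of the membrane arm, was at -0.46; 39.0% of its exon bases overlap a noncoding transcript on the opposite strand, and whether the counting used strand is not stated. Of the 5 listed subunits of complex I with iron-sulfur clusters, Ndufs1 (-0.39), Ndufv2 (-0.35) and Ndufs7 (-0.29) fell. Ndufs8, at -0.08 (SE 0.0862), and Ndufv1, the subunit that oxidizes NADH, at -0.11 (SE 0.0504), did not pass. Ndufv3, a small subunit beside Ndufv1, was at 0.02.

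In complex IV, Cox6b1, which lies on the intermembrane side, stood at 118, 119 and 114 CPM in sh-Empty and at 85.1, 87 and 82.9 CPM in sh-Jmjd1a libraries. It fell by 0.46 (SE 0.0517, adjusted p = 2.04e-08). Cox4i1, the widely expressed form of the subunit that binds regulatory nucleotides, stood at 284, 265 and 278 CPM against 216, 231 and 195 CPM, a log2 fold change of -0.36 (SE 0.0501, adjusted p = 9.24e-07). Neither gene's groups overlapped. Cox7b (-0.35), Ndufa4 (-0.33), Cox7a2 (-0.32) and Cox6a1 (-0.30) fell by like amounts. Cox5a (-0.11, adjusted p = 0.0905) did not pass. Cox7a2l, which joins complexes III and IV in supercomplexes rather than serving as a regular subunit, stood at 136, 139 and 143 CPM against 152, 156 and 139 CPM; its groups overlapped, and its log2 fold change was 0.09 (SE 0.0498, adjusted p = 0.141).

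Per kilobase of annotated exon, the highest levels in complex IV were those of Cox4i1, Ndufa4 and Cox6a1, with 405 ± 14.3, 355 ± 3.92 and 252 ± 15.6 RPKM in sh-Empty cells (mean ± SD, n = 3). The order within the other complexes depended on the length used, and is not given. The fold change on knockdown followed neither the level nor the exon length of a member (Spearman's rho 0.00 and -0.06 across 70 members, as a description).

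The rescue asked whether JMJD1A(WT) returns the transcripts in JMJD1A-KD cells. Relative to LacZ, JMJD1A(WT) raised 1 of the 72 members and lowered none (4 had an unadjusted p under 0.05), whereas 4.98% of the 12557 genes tested were higher and 4.52% lower. The median log2 fold change was -0.01. Without Ndufb4b, the members ranged from -0.14 to 0.25, with standard errors of 0.0334 to 0.0995. The summed level was 6634, 6979 and 6903 CPM with LacZ and 6786, 7149 and 6745 CPM with JMJD1A(WT), and the groups overlapped. The 9 adipocyte markers were all higher with JMJD1A(WT), their sum being 3329 to 3409 CPM with LacZ and 3817 to 4166 CPM with JMJD1A(WT).

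The member that rose was Ndufc2. It stood at 37.3, 33.3 and 36.6 CPM with LacZ, at 41.4, 47.8 and 39.9 CPM with JMJD1A(WT) and at 37.3, 35.9 and 37 CPM with JMJD1A(H1122A). All 3 JMJD1A(WT) libraries were above the other 6. The log2 fold change was 0.25 against LacZ (SE 0.0751, adjusted p = 0.0235), and that of JMJD1A(H1122A) against JMJD1A(WT) was -0.21 (SE 0.0766, adjusted p = 0.0371). It was thus the member called in the 3 directions of a decrease on knockdown, an increase under JMJD1A(WT) and a lower level under JMJD1A(H1122A); 296 of the 12202 genes tested in both sets (2.43%) had these calls. JMJD1A(WT) replicate 2 was the highest library. Without it the rescue gave an adjusted p of 0.162, without LacZ replicate 2 it gave 0.152, and the call against JMJD1A(H1122A) was lost with DESeq2 (adjusted p = 0.0511) and without any 1 of 5 of the 6 libraries compared (adjusted p = 0.0524 to 0.215).

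**Figure D3:**
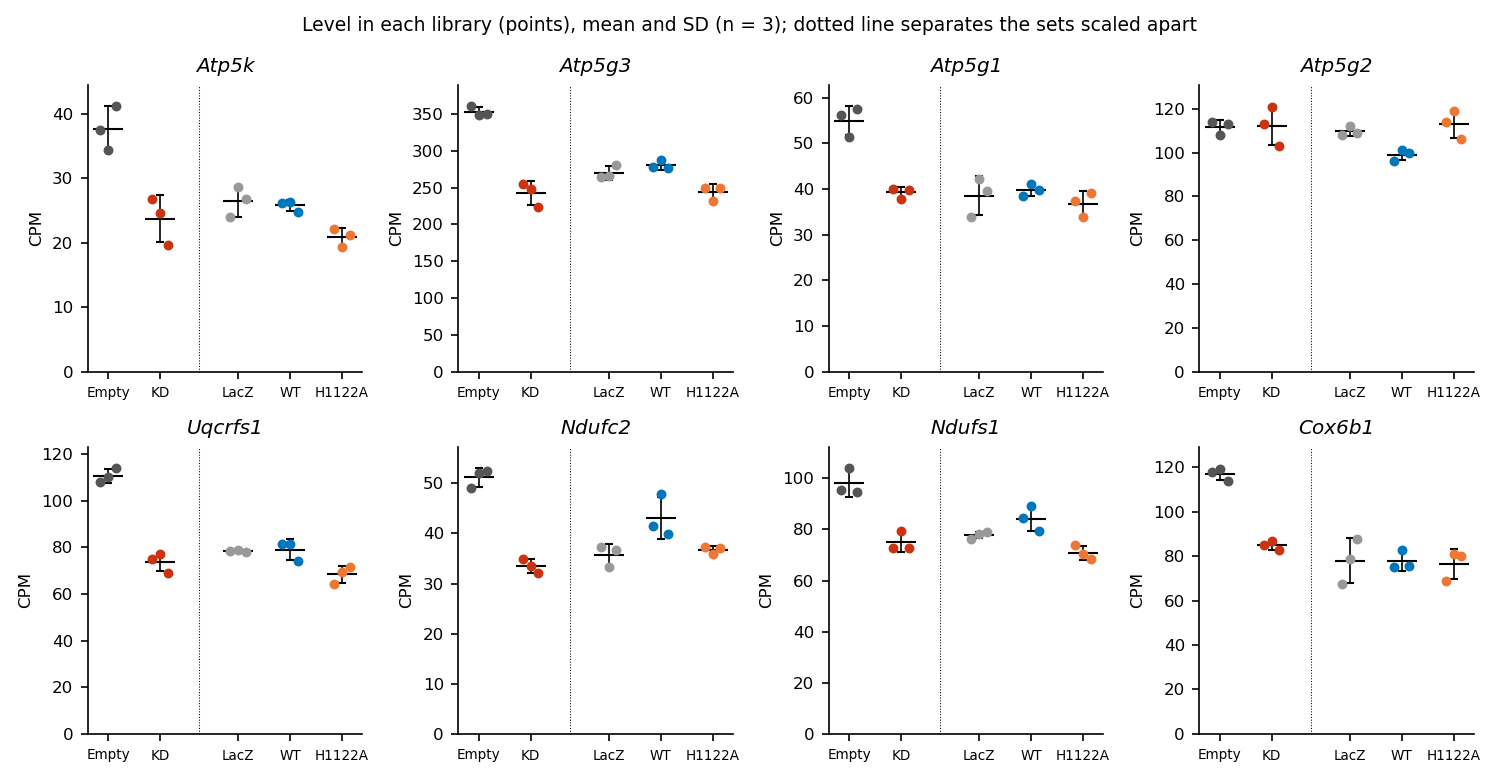
CPM of 8 members in each library (points) with mean and SD (n = 3) in sh-Empty, sh-Jmjd1a (KD), LacZ, JMJD1A(WT) and JMJD1A(H1122A) cells. The axes start at 0, and the dotted line separates the sets, which were scaled apart. Atp5g2 differs from Atp5g1 and Atp5g3 in showing no decrease on knockdown, and Ndufc2 is highest among the rescue groups in the 3 JMJD1A(WT) libraries.

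Between the JMJD1A forms, 9 members (12.5%) were lower and 2 (2.78%) higher for JMJD1A(H1122A) relative to JMJD1A(WT), and 23 had an unadjusted p under 0.05. Of all genes, 11.7% were lower and 12.1% higher. The median log2 fold change was -0.02. The Kdm3a counts, which include the introduced forms, differed by 0.38 on the log2 scale, JMJD1A(H1122A) having more. All 9 adipocyte markers were lower, with a sum of 2578 to 2683 CPM, and 62 of 85 cytosolic ribosomal protein genes were higher. Their part in the members' differences was not tested.

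The 9 lower members were Ndufs1 and Ndufc2 of complex I, Uqcrfs1 and Uqcrc2 of complex III, Cox6a1 of complex IV, and Atp5k, Atp5g3, Atp5pb and Atp5b of complex V. All 9 were among the 55 of 72 members that fell on knockdown (9 of 55), as were 54.9% of the 1434 genes lower between the JMJD1A forms among those tested in both sets. Ndufs1, the largest iron-sulfur subunit of complex I, stood at 84.3, 89 and 79.3 CPM with JMJD1A(WT) and at 73.8, 70.2 and 68.5 CPM with JMJD1A(H1122A). Its log2 fold change was -0.24 (SE 0.057, adjusted p = 0.00127). Atp5g3 stood at 278, 287 and 276 CPM against 250, 232 and 250 CPM, a log2 fold change of -0.20 (SE 0.0414, adjusted p = 0.000226). In both genes the 2 groups did not overlap. These were the members whose calls held under every other fit at the 0.05 threshold.

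Atp5k had the largest difference, with 26.2, 26.3 and 24.8 CPM for JMJD1A(WT) and 22.1, 19.3 and 21.2 CPM for JMJD1A(H1122A) (log2 fold change -0.30, SE 0.0937, adjusted p = 0.0151). Uqcrfs1 was at -0.20 (adjusted p = 0.00912), Uqcrc2 at -0.15 (0.0421), Cox6a1 at -0.14 (0.0361), Atp5pb at -0.14 (0.0389) and Atp5b at -0.10 (0.0274). The groups overlapped for Cox6a1 and Atp5pb. The number of lower members was 3 without JMJD1A(H1122A) replicate 1, 4 without its replicate 2 or without JMJD1A(WT) replicate 1, and 5 without JMJD1A(WT) replicate 2. Atp5k was no longer called without JMJD1A(H1122A) replicate 2 (adjusted p = 0.112), nor Uqcrfs1 without replicate 1 of either group (0.0958 and 0.0567), and the calls of Uqcrc2, Cox6a1, Atp5pb and Atp5b were each lost on leaving out in turn at least 4 of the 6 libraries compared. The 2 higher members were Atp5g2 and Ndufv3, which had not changed detectably on knockdown. Atp5g2 stood at 96.2, 101 and 99.8 CPM with JMJD1A(WT) and at 114, 119 and 106 CPM with JMJD1A(H1122A), with no overlap (log2 fold change 0.19, SE 0.0509, adjusted p = 0.00454). Ndufv3 was at 0.17 (SE 0.0518, adjusted p = 0.011). These calls were lost without JMJD1A(H1122A) replicate 2 for Atp5g2 (adjusted p = 0.0631) and without its replicate 3 for Ndufv3 (0.111). The log2 ratio of Atp5g3 to Atp5g2 was 1.53, 1.51 and 1.47 with JMJD1A(WT), 1.14, 0.96 and 1.24 with JMJD1A(H1122A) and 1.29, 1.24 and 1.37 with LacZ. The mean ratio differed by -0.39 between JMJD1A(H1122A) and JMJD1A(WT) and by 0.20 between JMJD1A(WT) and LacZ, in both cases with no overlap (two-sided exact permutation p = 0.1, the smallest possible).

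The knockdown set shares no library with the rescue set. Across 71 members (without Ndufb4b), the log2 fold changes on knockdown and those of JMJD1A(H1122A) against JMJD1A(WT) had a Pearson's r of 0.59 and a Spearman's rho of 0.54, against 0.29 and 0.27 across all 12202 genes. Genes are not independent replicates, and these values are descriptions. Members with the deepest decrease on knockdown were Atp5k, Ndufc2, Uqcrfs1 and Atp5g3. Their log2 fold changes for JMJD1A(H1122A) against JMJD1A(WT) were thus also among the lowest, as the plot of both comparisons shows. Against LacZ, Ndufc2 was at 0.04 with JMJD1A(H1122A) and was not called, whereas Atp5k, Uqcrfs1 and Atp5g3 were lower. For JMJD1A(WT) against LacZ the same coefficients were -0.38 and -0.35 (all genes -0.21 and -0.17), and for JMJD1A(H1122A) against LacZ they were 0.45 and 0.37 (all genes 0.19 and 0.21). With Ndufb4b included, Pearson's r was 0.60 for the JMJD1A forms, 0.62 for JMJD1A(H1122A) against LacZ and 0.17, of opposite sign, for JMJD1A(WT) against LacZ, where Spearman's rho was -0.30.

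**Figure D4:**
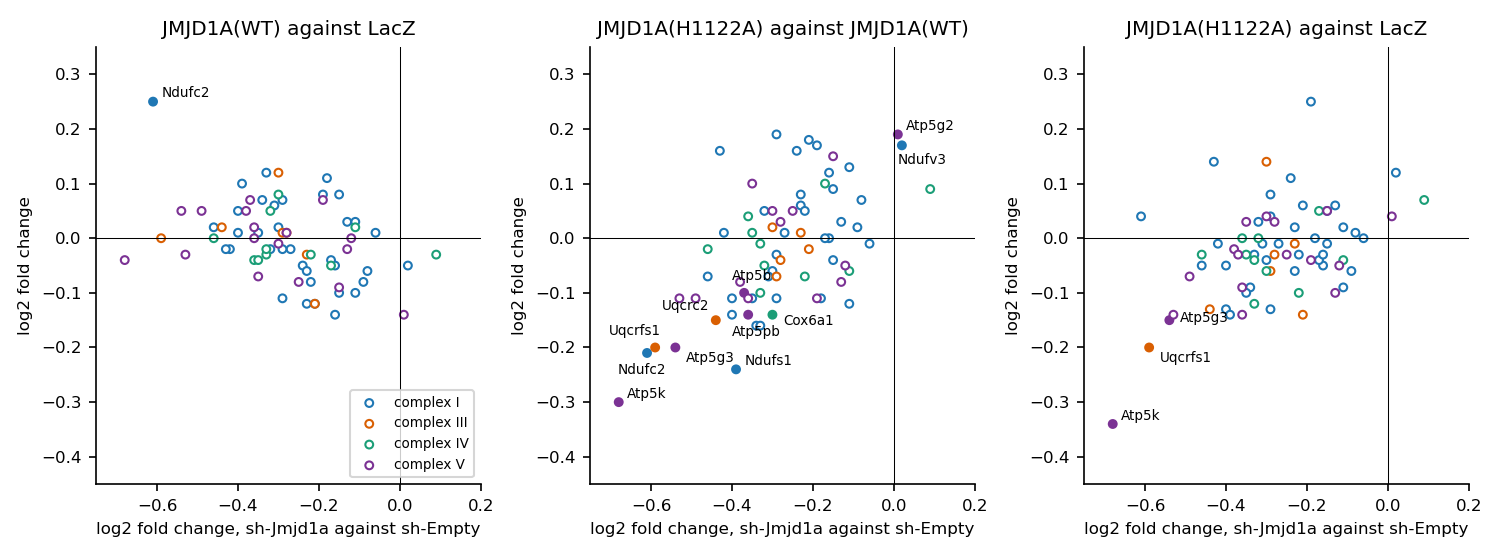
Log2 fold change of 71 members on knockdown (horizontal) and in the 3 comparisons of the rescue set (vertical), colored by complex. Filled, named points had an adjusted p under 0.05 in the comparison on the vertical axis: Ndufc2 with JMJD1A(WT) against LacZ, 11 members between the JMJD1A forms, and Atp5k, Uqcrfs1 and Atp5g3 with JMJD1A(H1122A) against LacZ.

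Against LacZ, 3 members were lower and none higher with JMJD1A(H1122A) (13 had an unadjusted p under 0.05); of all genes, 4.46% were lower and 4.78% higher. The median log2 fold change was -0.03. Of the 9 adipocyte markers, 8 were lower, their sum being 2578 to 2683 CPM against 3329 to 3409 CPM with LacZ. Of 85 cytosolic ribosomal protein genes, 16 were higher and 1 lower. Their part in the members' differences was not tested. Atp5k stood at 23.9, 28.6 and 26.7 CPM with LacZ, above all 3 JMJD1A(H1122A) libraries (log2 fold change -0.34, SE 0.0957, adjusted p = 0.0165). Uqcrfs1 stood at 78.6, 78.8 and 78.1 CPM with LacZ and at 64.3, 69.3 and 71.6 CPM with JMJD1A(H1122A) (-0.20, SE 0.0593, adjusted p = 0.0244). Atp5g3 stood at 264, 265 and 281 CPM against 250, 232 and 250 CPM (-0.15, SE 0.0417, adjusted p = 0.0181). No groups overlapped. None of the 3 remained called without LacZ replicate 3 or without JMJD1A(H1122A) replicate 2, and 1 (Atp5g3) remained without LacZ replicate 2.

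Over the 4 comparisons, 46 members (63.9%) were lower on knockdown and were not called in the rescue set, a pattern that 14.8% of the 12202 genes tested in both sets had. Another 15 members (20.8%) were not called in any comparison, against 44.2% of those genes. Among the 15 were Ndufv1, Ndufs8, Ndufs4 and Ndufb9 of complex I, Cox5a and Cox7a2l of complex IV, and Atp5e and Atp5mpl of complex V. A call in one comparison and none in another is no test of their difference.

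Genes that work with these subunits were counted by lists. Of the genes for complex II, cytochrome c and cytochrome c1, 5 of 6 were tested and all 5 were lower on knockdown. Cycs, the electron carrier cytochrome c, stood at 133, 140 and 136 CPM in sh-Empty and at 86.4, 90 and 85.1 CPM in sh-Jmjd1a libraries, a log2 fold change of -0.65 (SE 0.0505, adjusted p = 1.48e-11). Its log2 fold change was 0.17 for JMJD1A(WT) relative to LacZ (adjusted p = 0.035) and -0.42 between the JMJD1A forms (adjusted p = 1.36e-07). Of 41 tested assembly factors, 17 (41.5%) were lower on knockdown, such as Cox15 (-0.66) and Cox10 (-0.62), which make the heme a of complex IV. Another 2 (4.88%) were higher (Nubpl and Uqcc2), whereas 23.9% of all genes were lower and 22.3% higher. Between the JMJD1A forms 5 (12.2%) were lower and 1 (2.44%) higher, against 11.7% and 12.1% of all genes. Of 12 transcription and coactivator genes for respiratory genes, 2 (16.7%) were lower on knockdown, a smaller share than among all genes. They were Ppargc1b, a coactivator (-1.85, SE 0.174), and Esrra, an estrogen-related receptor (-0.47, SE 0.0675). Ppargc1a, Nrf1, Gabpa, Yy1 and Tfam were not called on knockdown. JMJD1A(WT) raised Ppargc1b relative to LacZ (0.67, adjusted p = 0.012) and lowered Ppargc1a (-0.44, adjusted p = 0.00864). Between the JMJD1A forms, 4 of the 12 (33.3%) were lower and none was higher. Among the 4 were Ppargc1b (-1.81, adjusted p = 3.66e-08), Esrra (-0.26, adjusted p = 0.00231) and Gabpa (-0.18, adjusted p = 0.00406). With JMJD1A(H1122A) against LacZ, 2 (16.7%) were lower and none was higher, whereas 4.46% of all genes were lower and 4.78% higher.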

How the data were processed

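RNA was measured in 15 libraries of 5 groups. The authors used fastp for trimming, HISAT2 for alignment to mm9 and featureCounts for counting per Entrez Gene; the deposited values are raw counts. The labels name a NEBNext Ultra kit and the methods a directional version, and the strand setting is not given in the sources used here. Symbols came from RefSeq (24191 of 26301 rows), and mm9 coordinates and exon lengths from GENCODE M1 (81 of 83 members).

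Counts were normalized by TMM, filtered with filterByExpr (minimum count 10) and tested with edgeR 4.0.16 (R 4.3.3; limma 3.58.1) by the robust quasi-likelihood F test with Benjamini-Hochberg adjustment over all genes tested. The 6 knockdown libraries were fitted apart from the 9 rescue libraries, so levels compare only within a set. CPM use the TMM library sizes. Totals set the counting precision: a member at 238 counts is less precise than one at 23834. Fits were tested on simulated data whose changes were larger than those of the members, which does not show how changes as small as theirs are recovered. Named members had the largest changes per complex and direction among calls without overlap, the highest levels per length, or calls in the 3 directions given for Ndufc2. Tissue isoforms and subunits with iron-sulfur clusters were also named, and others were named after their values were seen. Members and lists were chosen with earlier results of these data known. Alternatives were RLE, DESeq2 1.42.0, other filters and fits, thinning, a replicate block, a threshold of 0.01 and each library left out. RefSeq names pseudogenes for 10 members (Atp5k among them), whose reads the counting could split, and exons of 19 members overlap another gene.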

Additional observations from a re-analysis of the deposited data

How the results depend on the processing

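On knockdown, 44 to 55 members were lower under the other fits and the 0.01 threshold, and 44 to 56 when 1 library was left out; 41 of the 55 were called lower in every fit at the 0.05 threshold. The median of the members stayed between -0.31 and -0.22. The number of higher members was 1 without a filter (Cox6a2), and 0 to 1 when a library was left out (Cox7a2l without sh-Jmjd1a replicate 3).

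In the rescue, leaving out 1 library gave 0 to 1 higher (0 without LacZ replicate 2 or JMJD1A(WT) replicate 2) and 0 to 1 lower members (Ndufb11 without LacZ replicate 1), with 379 to 586 genes lower. Between the JMJD1A forms it gave 3 to 11 lower and 1 to 4 higher members, the lowest being 3 and 4 without JMJD1A(H1122A) replicates 1 and 2, 4 without JMJD1A(WT) replicate 1 and 5 without JMJD1A(WT) replicate 2, and DESeq2 gave 5 lower. The 4 higher members came without JMJD1A(WT) replicate 2, and the 1 without JMJD1A(H1122A) replicate 3. For JMJD1A(H1122A) against LacZ it gave 0 to 4 lower members, and 326 to 605 lower and 348 to 651 higher genes. At the 0.01 threshold, which admits fewer genes by construction, the rescue had 0 higher members and 307 lower genes, the JMJD1A forms 3 lower and 1 higher members, and JMJD1A(H1122A) against LacZ 0 lower members, 278 lower and 298 higher genes. Of the 12 members ranked highest per length, 6 were shared with the ranking by CPM and 6 with one by median coding transcript length, which was chosen after seeing the data. Otherwise the cause was not tested.

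Whether replicate numbers pair the libraries was not settled. Same-numbered deviations had weak correlations of -0.0536 to 0.0602, and differently numbered ones had correlations of -0.0711 to 0.0746. With the number as a replicate block, 53 members were lower on knockdown, 1 (Atp5g2, adjusted p = 0.0463) was lower in the rescue, 13 were called between the JMJD1A forms and 4 for JMJD1A(H1122A) against LacZ. Of 2204 values of 29 named members, 2145 stayed on the same side of the threshold, 53 lost and 6 gained a call, and no called value reversed. In 49 of the 2145, a value that was not called took the opposite sign. Depth limits Ndufb4b and the 11 members not tested.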

Other observations

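Other mitochondrial genes were read beside the subunits. Of 78 genes for mitochondrial ribosomal proteins, which translate the subunits encoded in mitochondria, 45 (57.7%) were lower and 1 (1.28%) was higher on knockdown. Of all genes, 23.9% were lower and 22.3% higher. The median log2 fold change of the 78 was -0.25. Their summed level was 3111 to 3206 CPM in sh-Empty and 2529 to 2731 CPM in sh-Jmjd1a libraries, with no overlap. In the rescue 3 (3.85%) were lower and 1 (1.28%) higher, against 4.52% and 4.98% of all genes. Between the JMJD1A forms 5 (6.41%) were lower and 2 (2.56%) higher, against 11.7% and 12.1%. Of 12 tested subunits encoded by mitochondrial DNA, ND1 (-0.19) and ND2 (-0.27) were lower on knockdown, and the median was -0.07. The libraries were made from polyadenylated RNA, which limits these mitochondrial values.

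Genes for cytosolic ribosomal proteins went another way in the rescue set. On knockdown 25 of 85 (29.4%) were lower and 3 (3.53%) higher, against 23.9% and 22.3% of all genes. With JMJD1A(WT) 30 (35.3%) were lower than with LacZ and none was higher, whereas 4.52% of all genes were lower and 4.98% higher. With JMJD1A(H1122A) 62 (72.9%) were higher and 3 (3.53%) lower than with JMJD1A(WT), against 12.1% and 11.7% of all genes. Their summed level was 43035 to 45737 CPM with LacZ, 40670 to 42165 CPM with JMJD1A(WT) and 45256 to 48417 CPM with JMJD1A(H1122A).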
